A study of Mus musculus with 16 samples.

Results

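Odorant receptors are the proteins with which olfactory sensory neurons detect odours, and the genes encoding them form a very large gene family in the mouse. The receptors described here are those encoded on chromosome 17, taken as every probeset that the array design places on that chromosome and whose gene carries an Olfr symbol with a number and no pseudogene mark. There were 49 such probesets, each for a different gene, among 1080 odorant receptor probesets and 22206 gene probesets in all. RefSeq annotates all 49 as protein coding, although 5 of them (Olfr93, Olfr94, Olfr115, Olfr138 and Olfr761) have older names ending in P, the mark once used for pseudogenes.

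RNA from cells of the olfactory mucosa was measured on 16 Clariom S arrays, which hold probesets of short oligonucleotides for most annotated mouse genes. All mice carried the S100a5-tauGFP reporter, in which green fluorescent protein (GFP) follows S100a5, a gene whose level in olfactory sensory neurons depends on how active they have been. The 4 groups, of 4 arrays each, were, from mice given odorant, GFP+ cells and GFP- cells, and, from mice given vehicle, again GFP+ cells and GFP- cells. The sorted cells of 3 mice were combined for an array, and 50 to 100 ng of their total RNA was labelled. The 24 mice were of both sexes, 7 to 12 weeks old, and were kept singly for 40 h in chambers flushed with clean air at 3.1 L/min. From 26 h onwards, pulses of 10 s were given every 20 min for 14 h, of odorant to 12 mice and of filtered air, the vehicle, to the other 12. Bourgeonal is the odorant in the sample labels and indole in the title of the study, so the stimulus is called the odorant here. Since 24 mice make 8 pools of 3, GFP+ and GFP- arrays that share treatment and number were sorted from 1 pool. Nothing states that arrays of odorant and vehicle mice with the same number shared a litter or a day. The labels give no gate other than GFP, so GFP- cells may hold any cell of the mucosa in which the reporter was off.

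An olfactory sensory neuron expresses a single odorant receptor gene from a single allele, chosen out of the whole repertoire, and keeps it for life. The receptor couples through the G protein subunit Gnal to adenylyl cyclase 3 and to a cyclic nucleotide-gated channel, and S100a5 rises in neurons that have been active. The level of a receptor's mRNA in a sorted fraction therefore reflects both how many neurons of that receptor the fraction holds and how much RNA each of them contains, and these arrays cannot tell fewer cells of a type from less RNA per cell. Receptor genes lie in clusters of related copies. The main group on mouse chromosome 17 adjoins the class I genes of the major histocompatibility complex, and such MHC-linked receptors are known in human as well.

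The 49 genes formed 2 groups along the chromosome in the order given by the RefSeq annotation. The smaller held 4 receptors, Olfr55, Olfr239, Olfr1564 and Olfr63, with the zinc finger gene Zfp955a among them. The larger held 45 receptors, from Olfr90 to Olfr136, between Gabbr1, which encodes a GABA-B receptor subunit, and Esp36, which encodes an exocrine gland-secreted peptide. The coding genes Ubd, H2-M3 and H2-M2 lay inside the larger group, the last 2 being MHC class I genes. RefSeq lists 51 protein-coding Olfr genes on this chromosome, of which Olfr100 and Olfr102 were not analysed here. By the older mouse odorant receptor (MOR) names, which group receptors by sequence, 17 belonged to family MOR256, 10 to MOR218, 7 to MOR263, 5 to MOR156, 3 to MOR267, 3 to MOR250, 1 each to MOR121 (Olfr96) and MOR249 (Olfr110), and 2 (Olfr111 and Olfr1564) had no such name.

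All values are log2 signals, on which a difference of 1 is a doubling. The background level of an array was the 95th percentile of its 23 antigenomic control probesets, designed to lack a match in the genome, and lay at 6.57 to 6.87. Of the 49 receptors, 28 exceeded that level on all 16 arrays, 18 on 1 to 15 arrays and 3 (Olfr108, Olfr128 and Olfr761) on none. Single arrays had 35 to 41 receptors above background in GFP+ cells, against 38 to 43 in GFP- cells. Array medians over all genes were 6.29 to 6.38 for the GFP+ fraction and 6.64 to 6.76 for the GFP- fraction. A receptor counted as at background in a group when none of its arrays exceeded the level or its mean did not exceed the mean level. For a fold against such a group, lower values were set to the background level and the result is given as "at least", and no fold is given where both groups were at background. Levels of different probesets are not compared, because probes differ in brightness.

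Many chromosome 17 receptors differed in level between GFP+ and GFP- cells, and of the 49, 10 were higher and 13 lower in GFP+ cells of both odorant and vehicle mice. How many of all genes were called the same way in both treatments was not counted. Olfr110 and Olfr101 had the largest positive differences, and Olfr99 and Olfr116 the largest negative ones, in both treatments. In mice given odorant, 11 of the 49 receptors were higher in GFP+ cells, 13 were lower and 25 did not pass the test (limma, Benjamini-Hochberg adjusted p under 0.05 over all 22206 probesets). The same fit called 3.57% of all gene probesets higher and 7.84% lower, so that 22.4% of the receptors against that background were higher and 26.5% lower. With vehicle, 12 receptors were higher (24.5%), 15 were lower (30.6%) and 22 did not pass, where 7.76% of all genes were called higher and 9.97% lower. Odorant receptors of other chromosomes also stood above those shares, with 34.6% called higher and 24.3% lower with odorant and 35.6% and 25.2% with vehicle. The difference of the means, GFP+ minus GFP-, had a median over the 49 receptors of -0.29 with odorant and -0.30 with vehicle, against 0.10 and 0.08 over all genes and 0.35 and 0.32 over the other receptors. With the pool as a replicate block, 12 were higher and 15 lower with odorant, where 5 calls changed, and no call changed with vehicle. That block called 883 of the 22206 genes higher and 1817 lower with odorant, and 1682 and 2237 with vehicle. Olfr107 no longer passed with odorant (adjusted p = 0.0554), whereas Olfr109 (adjusted p = 0.0365) and Olfr131 (adjusted p = 0.027) passed as higher and Olfr129 (adjusted p = 0.00243) and Olfr761 (adjusted p = 0.011), at background on all arrays, as lower. The count of 11 higher receptors was 7 when the odorant GFP+ array number 4 was left out, where 612 of the 22206 genes were called higher. With each array's median subtracted, which moves the median of all genes by 0.32 (odorant) and 0.36 (vehicle), the receptors' medians were 0.02 and 0.06. Negative differences smaller than those shifts then turned positive. Under that scaling 15 of 49 receptors were higher in each treatment, a smaller share than the 7757 (odorant) and 10363 (vehicle) of 22206 genes. There 12 and 13 receptors were lower, still a larger share than the 1520 and 1687 genes called lower. With the mean of the mature neuron markers subtracted, the median of all genes moved by -0.17 and -0.09, and smaller positive differences turned negative.

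**Figure D1:**
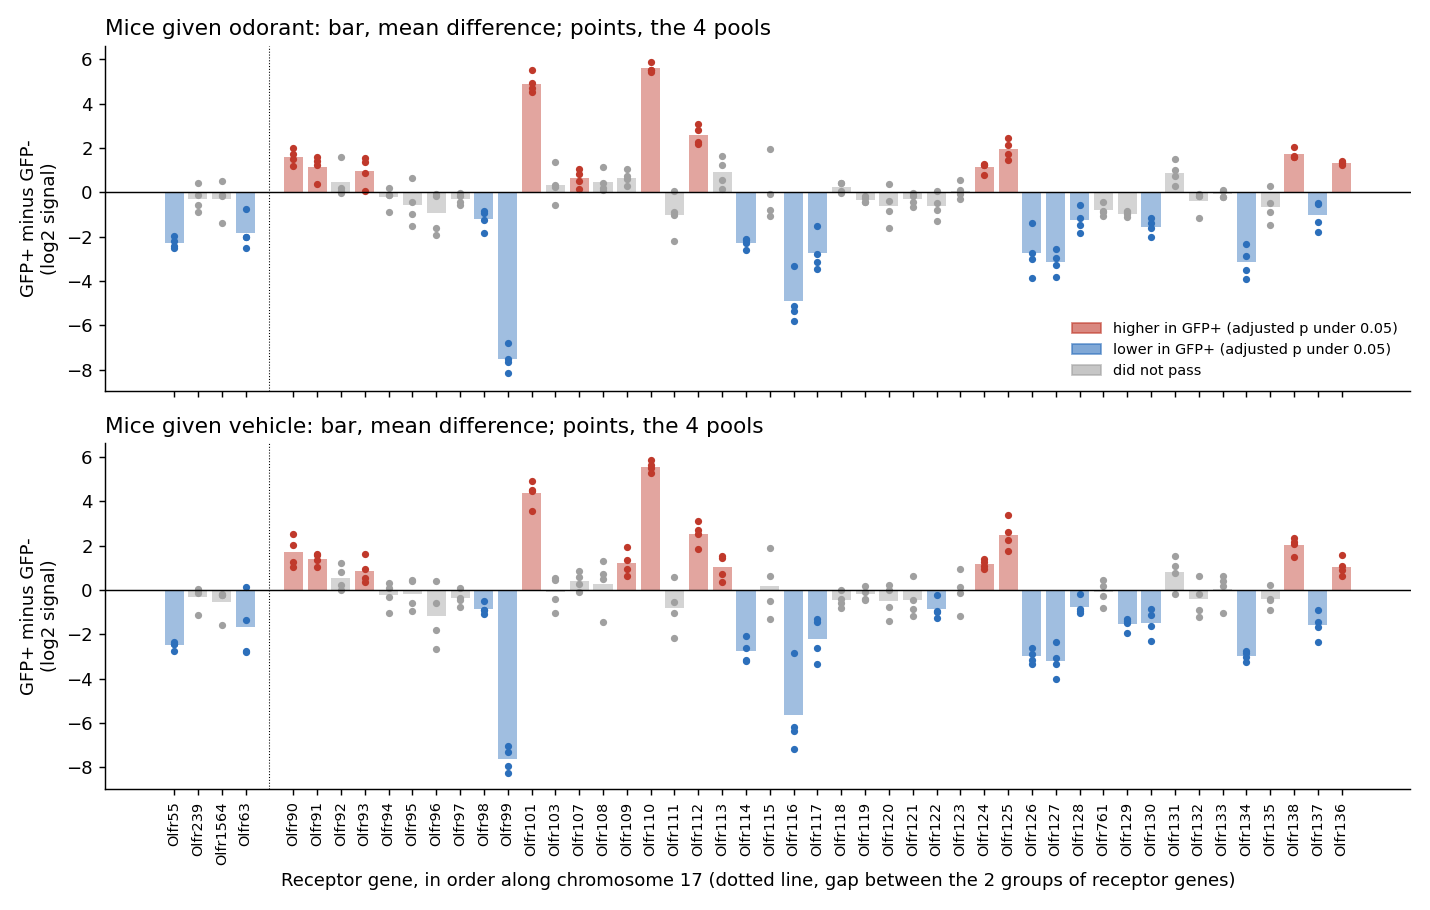
Difference in log2 signal between GFP+ and GFP- cells (vertical axis) for each of the 49 receptors in their order along chromosome 17 (horizontal axis), with odorant in the upper panel and vehicle in the lower. Bars are the difference of the means of 4 arrays, points the 4 pools, and colours show which receptors passed the test: 11 higher and 13 lower with odorant, 12 and 15 with vehicle.

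Olfr110, the MOR249 receptor of the cluster, had the largest positive difference. Its signals were 11.47, 11.74, 12.66 and 13.25 in GFP+ cells of odorant mice, against 5.94, 6.31, 7.14 and 7.35 in their GFP- cells. With vehicle they were 12.48, 12.77, 12.51 and 13.49 in GFP+ cells, against 6.63, 7.28, 7.25 and 7.87 in GFP- cells. Every GFP+ array lay far above every GFP- array, and the GFP- arrays lay near background. The difference was 5.59 with odorant (SE 0.416, adjusted p = 4.67e-06, 48.2-fold) and 5.55 with vehicle (SE 0.287, adjusted p = 7.66e-07, 47.0-fold). Within the 8 pools it ranged from 5.26 to 5.90.

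Olfr101, of family MOR250, read 11.20, 10.80, 11.62 and 12.02 in GFP+ cells of odorant mice, against 6.68, 5.30, 6.69 and 7.33 in GFP- cells. In vehicle mice it read 12.07, 11.02, 11.79 and 12.52 in GFP+ cells, against 7.60, 7.47, 7.28 and 7.60 in GFP- cells. Again no GFP+ array overlapped a GFP- array. GFP+ cells were higher by 4.91 with odorant (SE 0.395, adjusted p = 8.56e-06, at least 23.8-fold) and by 4.36 with vehicle (SE 0.272, adjusted p = 2.34e-06, 20.5-fold).

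Olfr112 and Olfr125, both of family MOR218, followed in size. Olfr112 was above background in both fractions, at 12.12, 11.91, 12.76 and 13.08 in GFP+ cells of odorant mice, against 9.85, 9.10, 10.59 and 9.98 in GFP- cells, and at 12.59, 13.48, 12.70 and 13.07 in GFP+ cells of vehicle mice, against 10.09, 10.39, 10.84 and 10.37 in GFP- cells. Its difference was 2.59 with odorant (SE 0.33, adjusted p = 0.000268, 6.01-fold) and 2.54 with vehicle (SE 0.225, adjusted p = 2.46e-05, 5.81-fold). GFP- cells thus carried Olfr112 well above background, unlike Olfr110 and Olfr101, whose GFP- arrays were near it. Olfr125 read 9.79, 9.95, 10.29 and 10.34 in GFP+ cells of odorant mice, against 8.05, 7.48, 8.81 and 8.19 in GFP- cells. With vehicle it read 10.56, 10.22, 9.94 and 10.33 in GFP+ cells, against 7.16, 7.61, 8.19 and 8.09 in GFP- cells. The groups did not overlap in either treatment, and the difference was 1.96 with odorant (SE 0.259, adjusted p = 0.000358, 3.88-fold) and 2.50 with vehicle (SE 0.235, adjusted p = 3.69e-05, 5.66-fold).

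The other receptors higher in GFP+ cells in both treatments were all of family MOR256. Olfr138 averaged 8.53 ± 0.51 in GFP+ cells, against 6.82 ± 0.37 in GFP- cells, with odorant, and 8.83 ± 0.25 against 6.82 ± 0.24 with vehicle (SD, n = 4 each), which is 3.27-fold and 4.04-fold. Olfr90 averaged 8.30 ± 0.34 in GFP+ cells, against 6.70 ± 0.34 in GFP- cells, with odorant, and 8.42 ± 0.58 against 6.72 ± 0.33 with vehicle, 3.02-fold and 3.26-fold. For both of these, only 2 or 3 of the 4 GFP- arrays exceeded background. Olfr91, next to Olfr90, was 2.25-fold higher in GFP+ cells with odorant and 2.61-fold with vehicle, and Olfr136, at the far end of the cluster, 2.53-fold (adjusted p = 0.0252) and 2.08-fold (adjusted p = 0.00225).

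Olfr124, also known as MOR256-3 or SR1, is a receptor that responds to many odorants and is common in the septal organ, a small olfactory patch on the nasal septum. It read 10.74, 10.85, 9.96 and 11.07 in GFP+ cells of odorant mice, against 9.94, 9.60, 8.72 and 9.79 in GFP- cells, and 10.83, 10.33, 10.53 and 10.35 in GFP+ cells of vehicle mice, against 9.46, 9.26, 9.59 and 9.07 in GFP- cells. GFP+ cells were higher by 1.14 with odorant (SE 0.3, adjusted p = 0.0299, 2.21-fold) and by 1.17 with vehicle (SE 0.169, adjusted p = 0.000756, 2.24-fold), and the GFP+ array lay above the GFP- array in 8 of 8 pools. Olfr93, with 1 of the older names ending in P, was at background in GFP- cells in both treatments and at least 1.55-fold higher in GFP+ cells with odorant (adjusted p = 0.0446) and at least 1.60-fold with vehicle (adjusted p = 0.0194). With odorant the calls of Olfr93, Olfr124 and Olfr136 were the least firm of these, since leaving out single arrays gave adjusted p up to 0.126 for Olfr93, 0.0899 for Olfr124 and 0.0775 for Olfr136. Subtracting the mean of the mature neuron markers from each array also ended the calls of Olfr93 (adjusted p = 0.0767) and Olfr124 (adjusted p = 0.0617) with odorant. With vehicle the calls of Olfr124 and Olfr136 held under every alternative.

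**Figure D2:**
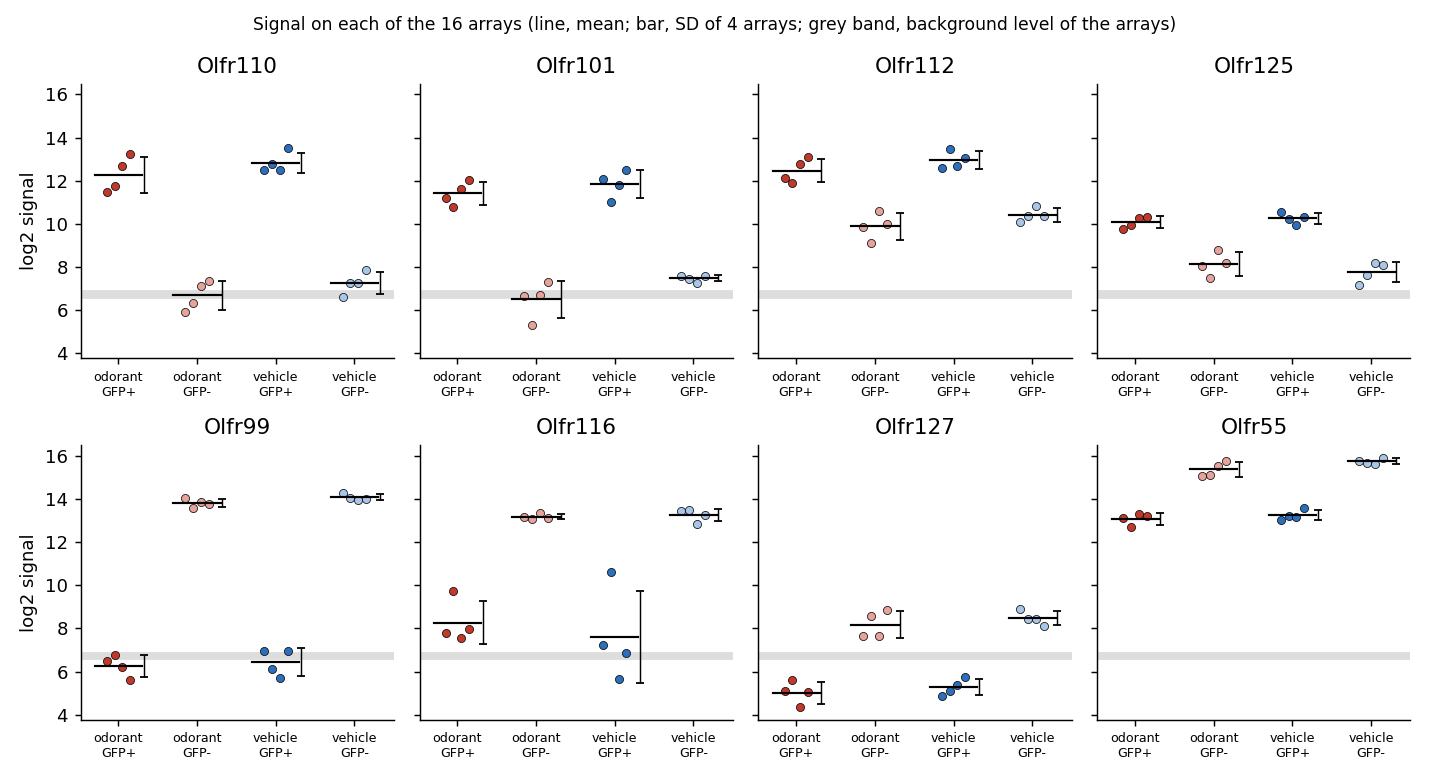
Log2 signal (vertical axis) on every array for the receptors with the largest positive (Olfr110, Olfr101, Olfr112, Olfr125) and several of the largest negative differences (Olfr99, Olfr116, Olfr127, Olfr55), by group on the horizontal axis. Points are arrays, lines means, bars the SD of 4 arrays and the grey band the background level of 6.57 to 6.87. Olfr99 is at 13.58 to 14.27 in GFP- cells and near the band in GFP+ cells, and the GFP+ arrays of Olfr116 spread from 5.65 to 10.62 with vehicle.

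Olfr99 showed the reverse pattern and the largest difference of any chromosome 17 receptor. In GFP+ cells it read 6.50, 6.77, 6.21 and 5.61 with odorant, against 14.04, 13.58, 13.86 and 13.76 in GFP- cells. With vehicle it read 6.97, 6.10, 5.70 and 6.98 in GFP+ cells, against 14.27, 14.04, 13.96 and 14.02 in GFP- cells. It was thus far above background on every GFP- array and at background in both GFP+ groups. In GFP+ cells it fell by 7.54 with odorant (SE 0.235, adjusted p = 1.43e-08, at least 132-fold lower) and by 7.63 with vehicle (SE 0.275, adjusted p = 7.77e-08, at least 155-fold lower). The difference was -6.81 or further from 0 in every pool, and the next receptor along the chromosome among the probesets was Olfr101, whose difference was large and positive. The gap between these neighbours, 12.4 with odorant and 12.0 with vehicle, was the largest between any neighbouring receptors of the chromosome.

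The promoter windows of Olfr99 and its MOR156 relatives Olfr97 and Olfr98 are shown because the genes have closely similar sequence in front of them and differ widely in how far they split between the sorted fractions. That of Olfr108, also of MOR156, is shown because it holds the same motif matches as those of Olfr98 and Olfr99. The windows run from 250 bases before to 50 bases after the annotated gene start, on the GRCm38.p6 build, and were taken from RefSeq, which had a window for 35 of the 49 receptors. For 23 of the 35 the annotated start is the first base of a start codon, as for Olfr97, Olfr98 and Olfr99, so that those windows end in coding sequence and need not hold the transcript's promoter. Olfr97 is shown at chr17:37232319-37232618, Olfr98 at chr17:37263613-37263912 and Olfr99 at chr17:37280369-37280668, all on the minus strand, and Olfr108 at chr17:37445230-37445529 on the plus strand. Capitals mark matches, on either strand, to the Ebf motif, a core bound by Ebf proteins that reads TCCC, any 2 bases and GGGA, and to TAATGA or TAATTA, cores bound by homeodomain proteins such as Lhx2. No overlap between the motifs occurred in these windows.
Olfr97: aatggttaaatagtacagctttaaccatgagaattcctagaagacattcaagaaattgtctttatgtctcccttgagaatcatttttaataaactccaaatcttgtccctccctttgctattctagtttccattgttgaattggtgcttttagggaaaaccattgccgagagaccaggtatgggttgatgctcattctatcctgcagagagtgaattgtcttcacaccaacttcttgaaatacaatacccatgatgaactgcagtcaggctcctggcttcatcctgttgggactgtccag
Olfr98: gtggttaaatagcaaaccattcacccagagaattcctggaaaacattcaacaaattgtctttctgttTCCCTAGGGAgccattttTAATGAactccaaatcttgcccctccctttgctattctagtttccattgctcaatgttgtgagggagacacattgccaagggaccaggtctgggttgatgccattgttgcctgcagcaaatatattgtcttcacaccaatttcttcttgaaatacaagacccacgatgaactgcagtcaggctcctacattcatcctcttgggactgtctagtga
Olfr99: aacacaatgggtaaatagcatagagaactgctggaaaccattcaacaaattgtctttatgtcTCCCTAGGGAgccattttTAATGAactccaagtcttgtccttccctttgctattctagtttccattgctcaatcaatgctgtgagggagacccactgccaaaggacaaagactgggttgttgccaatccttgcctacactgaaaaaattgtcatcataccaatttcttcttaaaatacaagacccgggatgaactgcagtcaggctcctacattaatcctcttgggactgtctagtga
Olfr108: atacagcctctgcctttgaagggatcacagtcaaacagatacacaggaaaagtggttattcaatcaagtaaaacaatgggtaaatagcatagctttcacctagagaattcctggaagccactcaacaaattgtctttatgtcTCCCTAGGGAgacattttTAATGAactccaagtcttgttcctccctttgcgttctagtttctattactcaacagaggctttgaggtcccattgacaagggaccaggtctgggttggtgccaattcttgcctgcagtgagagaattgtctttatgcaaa

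The Ebf motif occurred in 4 of the 35 windows (11.4%), in Olfr96, Olfr98, Olfr99 and Olfr108, in 1 of 909 windows of receptors on other chromosomes (0.11%) and in 0.904% of all 32851 RefSeq windows. In Olfr98, Olfr99 and Olfr108 the match was the same run, TCCCTAGGGA, and a TAATGA followed at the same spacing in each. The Ebf match in Olfr96 lay after the annotated gene start, and those in Olfr98, Olfr99 and Olfr108 lay before it. Olfr97 had no match to any of the motifs. TAATGA was in 25.7% of the 35 windows, 28.9% of the windows of other receptors and 9.78% of all windows, and TAATTA in 11.4%, 18.9% and 5.29%. These matches describe the sequence only, and whether a factor binds there was not measured.

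Olfr97, Olfr98 and Olfr99 differed widely in their split between the fractions. The windows of Olfr98 and Olfr99 were 82.3% identical, those of Olfr97 and Olfr98 81.4%, and those of Olfr97 and Olfr99 75.2%, against a median of 47.7% over the 595 pairs of member windows. The window of Olfr108 was 79.6% identical to that of Olfr107 and 49.5% to 50.0% identical, end to end, to those of Olfr97, Olfr98 and Olfr99. These latter windows are offset, since the Ebf match starts at base 143 in Olfr108, 68 in Olfr98 and 63 in Olfr99. Their alignments with Olfr108 were 374 to 380 bases long for windows of 300 bases. The end-to-end values therefore understate how alike the shared stretch is. The difference between GFP+ and GFP- cells was -0.29 with odorant and -0.38 with vehicle for Olfr97, which did not pass the test. For Olfr98 it was -1.21 (adjusted p = 0.00335) and -0.86 (adjusted p = 0.00248), and for Olfr99 it was -7.54 and -7.63. Olfr108 was at background on all 16 arrays, at 2.91 to 5.33. The remaining MOR156 receptor, Olfr107, went the other way with odorant, where it was 1.57-fold higher in GFP+ cells (adjusted p = 0.0273, and 0.0554 with the pool as a replicate block). With vehicle its difference of 0.41 did not pass (adjusted p = 0.226).

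Olfr116, of family MOR218, was the other receptor with a very large drop in GFP+ cells. It read 7.80, 9.75, 7.54 and 7.99 in GFP+ cells of odorant mice, against 13.14, 13.09, 13.36 and 13.11 in GFP- cells. In vehicle mice it read 7.26, 10.62, 5.65 and 6.88 in GFP+ cells, against 13.43, 13.49, 12.84 and 13.25 in GFP- cells. GFP- arrays were tightly grouped, whereas the GFP+ array numbered 2 stood above the other 3 in both treatments. In GFP+ cells it fell by 4.91 with odorant (SE 0.399, adjusted p = 9.1e-06, 30.0-fold lower) and by 5.65 with vehicle (SE 0.824, adjusted p = 0.000779, 50.1-fold lower). Without vehicle GFP+ array 2 the vehicle difference was -6.65, and without vehicle GFP+ array 3, the lowest, it was -5.00.

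The neighbours of Olfr116 on either side did not share its change in full. Olfr117, a MOR256 receptor, read 9.82, 11.29, 9.47 and 9.87 in GFP+ cells of odorant mice, against 12.61, 12.79, 12.95 and 13.01 in GFP- cells, a difference of -2.73 (SE 0.331, adjusted p = 0.000188). With vehicle it averaged 10.79 ± 0.86 in GFP+ cells and 12.99 ± 0.25 in GFP- cells (SD, n = 4 each), a difference of -2.19 (adjusted p = 0.00166). Olfr115, on the other side and of the same family as Olfr116, averaged 11.67 ± 0.67 in GFP+ cells and 11.66 ± 0.87 in GFP- cells with odorant, and 11.93 ± 1.3 and 11.75 ± 0.15 with vehicle, with no call in either.

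Olfr113 and Olfr114 lie side by side in the same family, MOR218, and had the most alike promoter windows of the 595 pairs, 85.9% identical. They are shown for that reason, from chr17:37575372-37575671 and chr17:37590302-37590601, both on the minus strand. Neither window held any of the motifs, so no base is in capitals, and both annotated starts are start codons.
Olfr113: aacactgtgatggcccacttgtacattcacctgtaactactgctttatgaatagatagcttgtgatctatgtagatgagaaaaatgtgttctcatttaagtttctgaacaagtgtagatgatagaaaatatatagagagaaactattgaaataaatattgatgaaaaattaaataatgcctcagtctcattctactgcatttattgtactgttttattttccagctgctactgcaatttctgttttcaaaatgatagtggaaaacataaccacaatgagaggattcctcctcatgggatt
Olfr114: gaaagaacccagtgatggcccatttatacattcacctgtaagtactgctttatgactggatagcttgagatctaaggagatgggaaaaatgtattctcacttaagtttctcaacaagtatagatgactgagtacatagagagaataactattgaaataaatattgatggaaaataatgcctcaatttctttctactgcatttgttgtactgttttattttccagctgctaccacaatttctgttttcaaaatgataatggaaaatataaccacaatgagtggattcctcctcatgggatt

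Olfr113 and Olfr114 differed in opposite directions between the fractions. Olfr114 read 4.66, 5.77, 5.84 and 5.48 in GFP+ cells of odorant mice, against 7.25, 7.87, 7.98 and 7.76 in GFP- cells, and 4.46, 5.91, 5.24 and 4.82 in GFP+ cells of vehicle mice, against 7.62, 8.51, 7.32 and 8.04 in GFP- cells. All 8 GFP+ arrays were at background and all 8 GFP- arrays above it, and the difference was -2.28 with odorant (SE 0.266, adjusted p = 0.000147, at least 1.93-fold lower) and -2.77 with vehicle (SE 0.33, adjusted p = 0.000197, at least 2.33-fold lower). Olfr113 read 9.39, 9.37, 9.29 and 9.40 in GFP+ cells of odorant mice, against 8.13, 7.74, 9.15 and 8.82 in GFP- cells, and 9.95, 9.94, 9.09 and 9.71 in GFP+ cells of vehicle mice, against 8.41, 8.48, 8.74 and 8.99 in GFP- cells. Its GFP+ array was the higher in 8 of 8 pools. The difference passed with vehicle (1.01, SE 0.218, adjusted p = 0.00866) and not with odorant (0.90, SE 0.27, adjusted p = 0.0568).

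Olfr126 and Olfr127, neighbours in the same stretch of MOR218 receptors as Olfr125, went against Olfr125. Olfr126 read 6.53, 6.38, 5.31 and 5.91 in GFP+ cells of odorant mice, against 7.92, 9.14, 9.18 and 8.89 in GFP- cells, and its level in GFP+ cells was at least 4.04-fold lower (adjusted p = 0.000163). With vehicle it was at least 5.89-fold lower (adjusted p = 2.23e-06). Olfr127 read 5.12, 5.59, 4.35 and 5.04 in GFP+ cells of odorant mice, against 7.66, 8.56, 7.64 and 8.87 in GFP- cells, and was at least 2.67-fold lower with odorant (adjusted p = 5.8e-05) and at least 3.56-fold lower with vehicle (adjusted p = 4.78e-06). Olfr126 and Olfr127 were at background on all 8 GFP+ arrays. Olfr128, the next gene, passed the test as lower in both treatments but was at background on all 16 arrays, with values of 4.35 to 5.19 in GFP+ cells, against 5.36 to 6.19 in GFP- cells, so it was not above background in either fraction and has no fold.

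Olfr55 and Olfr63, of family MOR267 in the smaller group of genes, were lower in GFP+ cells in both treatments. Olfr55 was far above background on every array, at 13.10, 12.68, 13.32 and 13.23 in GFP+ cells of odorant mice, against 15.08, 15.10, 15.52 and 15.75 in GFP- cells, and at 13.02, 13.23, 13.17 and 13.56 in GFP+ cells of vehicle mice, against 15.76, 15.66, 15.60 and 15.92 in GFP- cells. Its groups were well apart, with a difference of -2.28 with odorant (SE 0.203, adjusted p = 1.8e-05, 4.86-fold lower) and -2.49 with vehicle (SE 0.154, adjusted p = 2.32e-06, 5.62-fold lower). Olfr63 averaged 9.20 ± 0.69 in GFP+ cells and 11.01 ± 0.60 in GFP- cells with odorant (difference -1.81, adjusted p = 0.00653), and 9.28 ± 0.68 and 10.96 ± 0.72 with vehicle (difference -1.68, adjusted p = 0.0139, SD over 4 arrays each), where the groups overlapped by 1 array. Their relative Olfr239, which lies next to Olfr55, averaged 13.04 ± 0.33 in GFP+ cells and 13.32 ± 0.61 in GFP- cells with odorant, and 13.31 ± 0.35 and 13.62 ± 0.32 with vehicle, and did not pass in either.

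The remaining receptors lower in both treatments were Olfr134, Olfr130 and Olfr137, of family MOR256, besides Olfr98 and Olfr128 described above. Olfr134 read 4.70, 5.51, 5.27 and 5.18 in GFP+ cells of odorant mice, against 8.61, 8.40, 8.76 and 7.50 in GFP- cells, and was at background on all 8 GFP+ arrays. Its difference was -3.15 with odorant (SE 0.277, adjusted p = 1.62e-05, at least 2.93-fold lower) and -2.98 with vehicle (SE 0.227, adjusted p = 8.88e-06, at least 3.19-fold lower). Olfr130 stayed well above background in both fractions and was 2.91-fold lower in GFP+ cells with odorant (adjusted p = 0.000371) and 2.78-fold with vehicle (adjusted p = 0.00115). Olfr137 was at least 1.72-fold lower with odorant (adjusted p = 0.0375) and at least 2.40-fold lower with vehicle (adjusted p = 0.00134).

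The sorts of odorant mice and of vehicle mice share no sample, and they gave nearly the same order of receptors. Of the 49, 10 were higher in GFP+ cells in both sorts, 13 were lower in both, 5 passed in 1 sort only, 21 passed in neither and 0 passed in opposite directions. These counts have no matching count over all genes beside them. The 5 that passed in 1 sort only were Olfr107, higher with odorant, Olfr109 and Olfr113, higher with vehicle, and Olfr122 and Olfr129, lower with vehicle. All 5 had the same sign in the other sort, and the difference between the sorts was not called for any of them. With the pool as a replicate block, 11 were higher and 14 lower in both sorts, and the receptors passing in 1 sort only were Olfr131 and Olfr761 with odorant and Olfr113 and Olfr122 with vehicle. Over the 49 receptors the 2 differences had the same sign for 45, a Pearson r of 0.988 and a Spearman rho of 0.967, given as a description of receptors that share the same arrays within each sort. Without the 4 receptors of largest size r was 0.974. The gap between the differences had a median of 0.21 and was at most 0.74, for Olfr116. Olfr109, a MOR250 receptor, showed a wide gap among the 5, with 8.42 ± 0.39 in GFP+ cells and 7.75 ± 0.48 in GFP- cells with odorant (difference 0.67, adjusted p = 0.153, and 0.0365 with the replicate block, SD over 4 arrays each). With vehicle its GFP+ arrays read 8.72, 8.22, 9.62 and 9.46, against 7.77, 7.58, 8.26 and 7.52 in GFP- cells (difference 1.22, adjusted p = 0.0178). Its vehicle groups overlapped slightly, and leaving out vehicle GFP+ array 4 gave an adjusted p of 0.051.

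**Figure D3:**
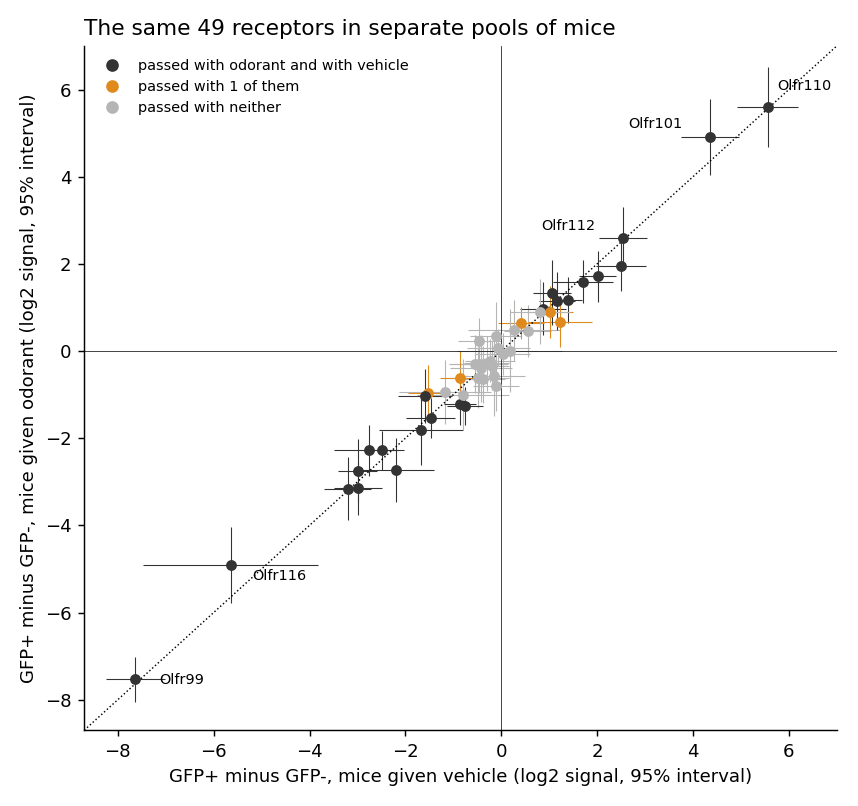
Difference in log2 signal between GFP+ and GFP- cells in mice given odorant (vertical axis) against the same in mice given vehicle (horizontal axis), 1 point per receptor with 95% intervals of the fit and the line of equal values. The 10 receptors higher in both lie at the upper right and the 13 lower in both at the lower left. The receptors that passed in 1 sort only lie between -1.54 and 1.22 on the vehicle axis.

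Receptors that did not pass in either sort included several that were far above background. Olfr131, a MOR256 receptor, averaged 12.67 ± 0.57 in GFP+ cells and 11.77 ± 0.62 in GFP- cells with odorant, and 12.78 ± 0.60 and 11.97 ± 0.32 with vehicle, with differences of 0.90 (adjusted p = 0.135, and 0.027 with the replicate block) and 0.81 (adjusted p = 0.0764). Olfr96, the MOR121 receptor, averaged 10.28 ± 0.47 in GFP+ cells and 11.22 ± 0.68 in GFP- cells with odorant, and 10.00 ± 1.1 and 11.17 ± 0.31 with vehicle, with differences of -0.94 (adjusted p = 0.108) and -1.17 (adjusted p = 0.0935). Olfr97 and Olfr132 also stood above background on every array, with differences between -0.42 and -0.29 in both sorts. Olfr133 and Olfr123 had differences between -0.07 and 0.08. Olfr92 (0.46 with odorant and 0.55 with vehicle), Olfr94 (-0.22 and -0.24), Olfr1564 (-0.29 and -0.56), Olfr135 (-0.64 and -0.39) and Olfr761 (-0.81 and -0.11) did not pass either, the last at background on every array. Olfr111 averaged 5.73 ± 0.53 in GFP+ cells and 6.73 ± 0.77 in GFP- cells with odorant, and 5.58 ± 0.088 and 6.38 ± 1.1 with vehicle, with 2 of 4 GFP- arrays above background in each sort and no call.

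The 2 largest families, MOR256 and MOR218, held receptors that passed in each direction. MOR256 had 6 of 17 receptors higher and 4 lower in each sort, with a median difference of 0.08 with odorant and 0.03 with vehicle. MOR218 had 2 of 10 higher and 5 lower with odorant (median -1.04), and 3 higher and 5 lower with vehicle (median -0.44). MOR263 had none of its 7 called with odorant (median -0.56), and with vehicle 0 higher and 2 lower, Olfr122 and Olfr129 (median -0.47). Its differences were negative for 6 of 7 receptors with odorant and for 7 of 7 with vehicle. Its other members, among them Olfr95, Olfr119, Olfr120 and Olfr121, did not pass. MOR156 had 1 of 5 higher and 2 lower with odorant, and 0 and 2 with vehicle. MOR267 had 0 of 3 higher and 2 lower in each sort, with all 3 differences negative, and MOR250 had 1 of 3 higher with odorant and 2 with vehicle, with 0 lower. In MOR250 the third member, Olfr103, had 0.35 with odorant and -0.11 with vehicle. Over all genes 3.57% were called higher and 7.84% lower with odorant, and 7.76% and 9.97% with vehicle. Differences between families were not tested.

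**Figure D4:**
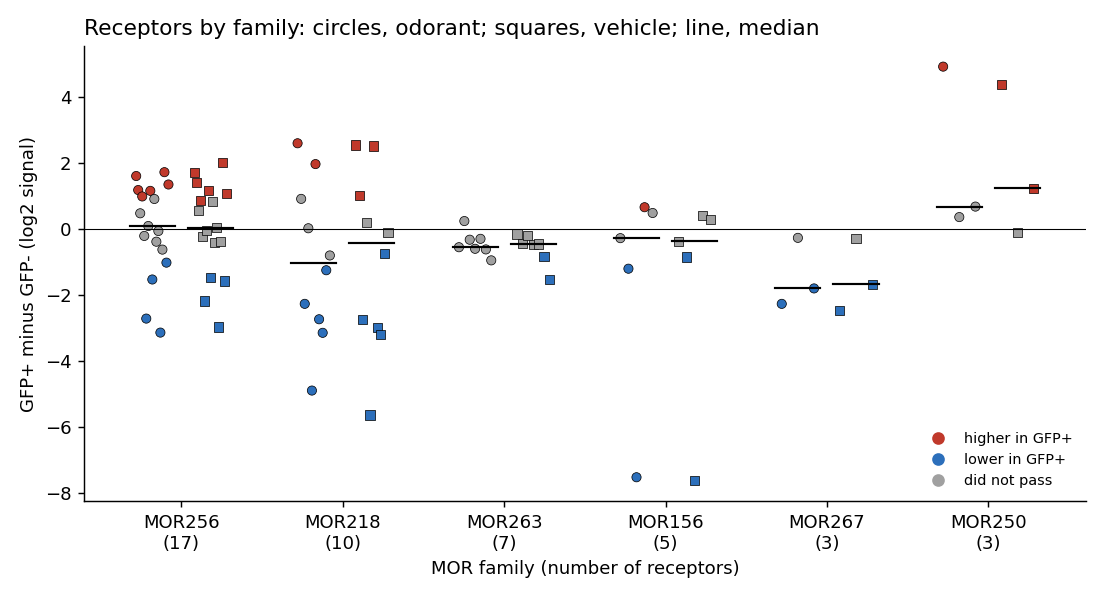
Difference in log2 signal between GFP+ and GFP- cells (vertical axis) for the receptors of each MOR family with 3 or more members (horizontal axis, number of receptors in brackets). Circles are odorant mice, squares vehicle mice, lines family medians, and colours mark the receptors that passed. MOR256 and MOR218 span both directions, from -3.15 to 1.71 and from -4.91 to 2.59 with odorant.

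Neighbouring genes shared the direction of their difference somewhat more often than all pairs did. Of 47 pairs of neighbours within the 2 groups, 31 had the same sign with odorant (66.0%), where 50.7% of all 1176 pairs of the 49 did, and 29 with vehicle (61.7%), where 52.6% did. The share was not tested, and it counts the sign of every receptor, also of small differences whose sign depends on the scaling. Some stretches were uniform, such as Olfr90 to Olfr93 with 4 positive differences in both sorts, of which those of Olfr90, Olfr91 and Olfr93 passed. Others alternated, as in Olfr112 and Olfr113 (positive) beside Olfr114 (negative), or Olfr124 and Olfr125 (positive) beside Olfr126, Olfr127 and Olfr128 (negative). At the end of the cluster Olfr138 and Olfr136 were higher in GFP+ cells, and Olfr137 between them was lower.

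Many markers of other cell types were lower in GFP+ cells, and their relation to the receptor differences was not tested. Omp, which marks mature sensory neurons, averaged 18.69 ± 0.051 in GFP+ cells and 18.59 ± 0.069 in GFP- cells with odorant, and 18.67 ± 0.011 and 18.63 ± 0.072 with vehicle (SD, n = 4 each), and was not called. S100a5 itself was higher in GFP+ cells by 1.14 with odorant (adjusted p = 0.00247) and by 0.93 with vehicle (adjusted p = 0.00236), and 5 of 7 activity-dependent genes passed as higher with odorant and 6 of 7 with vehicle. Markers of immature neurons were lower in GFP+ cells for 4 of 6 genes with odorant and 5 of 6 with vehicle, with array means over the list of 9.59 to 10.06 in GFP+ cells, against 12.15 to 12.91 in GFP- cells, and Gng8 and Nhlh1 were at background on all GFP+ arrays. Sustentacular (supporting) cell markers were lower for 2 and 6 of 6, Bowman gland markers for 3 of 4 in both, microvillar and tuft cell markers for 5 of 5 in both, cycling and globose basal cell markers for 4 of 4 in both, and immune markers for 4 of 5 in both. The horizontal basal cell markers Krt5, Krt14, Trp63 and Icam1 were at background in every group. Of 11 mature neuron markers, 1 was higher with odorant and 2 with vehicle, and 0 were lower. Cngb1, of that list, was at background in every group and was kept in the array means. Array means over that list were 16.07 to 16.23 in GFP+ cells, against 15.88 to 16.11 in GFP- cells. With those means subtracted from each array, 8 receptors were higher and 15 lower with odorant, and 12 and 15 with vehicle. The part of other cell types in the receptor differences was not tested otherwise.

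Some genes that act with the receptors also differed between the fractions, where 11.4% of all genes were called in either direction with odorant and 17.7% with vehicle. Of 18 measured genes of receptor signalling and trafficking, 2 were higher and 1 lower in GFP+ cells with odorant, and 5 higher and 1 lower with vehicle, with a median difference of 0.18 in both. Among the 18, Cngb1 and Grk3 were at background in every group. Pde1c, a phosphodiesterase of the sensory cilia, was higher by 0.69 with odorant and by 0.65 with vehicle. Of the 17 probesets for 16 regulators of receptor choice, 0 were higher and 1 lower with odorant, and 2 higher and 1 lower with vehicle. The lower one in both was Lbr, the lamin B receptor that organises heterochromatin at the nuclear envelope, at -0.95 (adjusted p = 0.0398) and -1.08 (adjusted p = 0.00758). Emx2 and Ebf1, transcription factors of olfactory neurons, were higher by 0.48 (adjusted p = 0.0389) and 0.44 (adjusted p = 0.0286) with vehicle.

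No chromosome 17 receptor passed the test between odorant and vehicle. In GFP+ cells, the fraction sorted for the activity reporter, 0 of 49 receptors passed (limma), as did 0% of all 22206 probesets. At an unadjusted p under 0.05 there were 3 receptors (6.12%), all lower with odorant, where 3.82% of all genes were under it. That count of 3 was 1 without vehicle GFP+ array 1, 8 without vehicle GFP+ array 2, 6 without odorant GFP+ array 2 and 5 without odorant GFP+ array 3. With the replicate block it was 6. The matching shares of all genes are not given for these alternatives. Olfr135 averaged 6.06 ± 0.51 with odorant, against 6.85 ± 0.44 with vehicle (SD, n = 4 each), and differed by -0.79 with a 95% interval of -1.41 to -0.18, and was at background in the odorant group. Olfr133 averaged 9.40 ± 0.28 with odorant, against 10.04 ± 0.55 with vehicle, and differed by -0.63 with an interval of -1.20 to -0.06. Olfr128 differed by -0.42 at background levels. All 3 had an adjusted p of 0.999, and their groups overlapped.

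The size of effect that these GFP+ arrays leave possible differed between receptors. The 95% interval reached 0.56 to either side at the median, and it lay within 1 of 0, that is within a doubling or halving, for 36 of the 49 receptors. The upper bound was under 1 for 46 receptors and the lower bound above -1 for 38. Olfr116 had the widest interval, with 8.27 ± 1.0 in odorant GFP+ cells and 7.60 ± 2.1 in vehicle GFP+ cells. The differences were negative for 39 of 49 receptors, with a median of -0.21, against 0.01 over all genes and -0.07 over the odorant receptors of other chromosomes. The mean over the 49 receptors was 8.48 to 8.80 on the odorant GFP+ arrays and 8.64 to 9.004 on the vehicle GFP+ arrays, which overlapped. The 49 values of an array rise and fall together with that array, so their number gives no added precision.

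In GFP- cells 0 of 49 receptors passed, again with 0% of all genes, and 6 receptors (12.2%) were under an unadjusted p of 0.05, all lower with odorant, against 6.84% of all genes. Leaving out single arrays gave counts from 5, as without odorant GFP- array 1, to 10, without odorant GFP- array 3. The replicate block gave 11. The matching shares of all genes are not given for these counts. Olfr107 read 9.61, 10.04, 9.91 and 9.96 with odorant, against 10.48, 10.43, 10.39 and 10.55 with vehicle, a difference of -0.58 with a 95% interval of -0.91 to -0.25 and an adjusted p of 0.708. Its groups did not overlap. Olfr135 read 6.63, 6.28, 6.98 and 6.88 with odorant, against 7.26, 7.44, 7.10 and 7.14 with vehicle, a difference of -0.54 (adjusted p = 0.708). Olfr118 differed by -0.77 with both groups at background, and the others were Olfr101 (-0.99), Olfr1564 (-0.65) and Olfr133 (-0.53). Here too 39 of 49 differences were negative, with a median of -0.20, against -0.01 over all genes and -0.09 over the odorant receptors of other chromosomes. That median was -0.07 without odorant GFP- array 2, -0.13 without odorant GFP- array 1, -0.12 without vehicle GFP- array 4 and -0.11 with the mature neuron markers subtracted. The mean over the 49 receptors was 8.73 to 9.26 on odorant GFP- arrays and 9.10 to 9.25 on vehicle GFP- arrays.

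**Figure D5:**
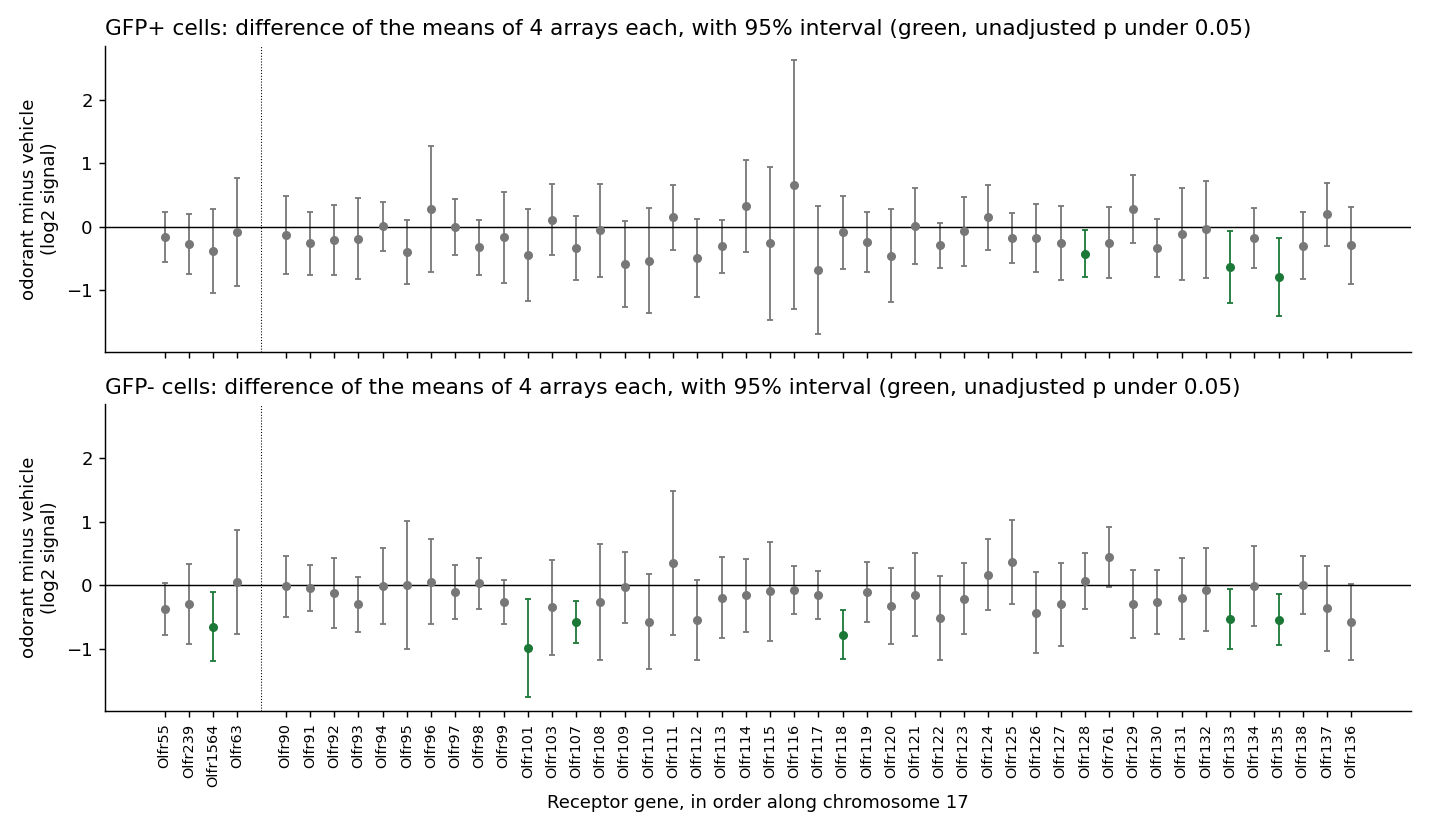
Odorant minus vehicle in log2 signal (vertical axis) for each receptor in chromosome order (horizontal axis), in GFP+ cells above and GFP- cells below, with 95% intervals of the fit. Green points are the 3 and 6 receptors with an unadjusted p under 0.05, all below 0, and none passed after adjustment.

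Whether the odorant changed the split of a receptor between the fractions was asked by the interaction, in which the effect of odorant in GFP- cells is subtracted from its effect in GFP+ cells. It called 0 of 49 receptors (limma), with 0% of all genes called. At an unadjusted p under 0.05 it had 0 receptors and 4.92% of all genes. The smallest p-values belonged to Olfr118 (0.69, SE 0.329), Olfr761 (-0.70, SE 0.351) and Olfr128 (-0.50, SE 0.262), all with an adjusted p of 0.962 and all near or under background in every group. For the receptors with the largest splits the interaction was 0.04 for Olfr110, 0.55 for Olfr101, 0.10 for Olfr99 and 0.74 for Olfr116. Its 95% interval, which is not adjusted over genes, reached 0.80 to either side at the median. It lay within 1 of 0 for 22 of the 49 receptors. A call after adjustment over all genes needed a change larger than the reach of that interval.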

How the data were processed

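The 16 arrays, 4 in each of 4 groups, were taken as the authors deposited them, as log2 probeset signals made with Affymetrix Expression Console, per the submitters' processing notes. The sources used here do not give its version, its normalization or the genome build of the array annotation, so positions are given only for the RefSeq promoter windows. Of 28846 probesets, 6640 control probesets were left out, and of the 22206 left, 19572 carried 1 gene symbol and 2634 none. Columns without a sample numbered 0.

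Receptors, gene lists and motifs were chosen with earlier results of these data known. Symbols, order and promoter windows came from RefSeq tables (GRCm38.p6). Each comparison was fitted on its 8 arrays, and the interaction on all 16, with limma 3.58.1 in R 4.3.3 (lmFit, then eBayes). Tests were two-sided, p-values were adjusted over the 22206 probesets by Benjamini-Hochberg, and the threshold was 0.05. Nothing was adjusted over the receptors alone. The fits were tested on simulated data. Other work was done in Python 3.11.15 with matplotlib 3.10.9. Pools are separate groups of mice, so p-values measure the spread, within a group, between pools of 3 mice, and the number of arrays limits the precision. The main fits took the GFP+ and GFP- arrays of a pool as independent, and only the replicate block paired them. Probe sequences were not used here, so cross-hybridisation between near-identical receptors was not tested.

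A rule chose for full statistics, in each sort, the 10 largest positive and 10 largest negative differences among the receptors that passed. Elsewhere it chose the receptors that passed or, where none did, the 3 with the smallest p. Not every statistic is printed for each chosen receptor, and Olfr138, Olfr90 and Olfr91 are given without SE or adjusted p. Pairs by protein identity, which the rule also named, were not used here, and promoter windows took their place. Per-array values of other receptors, and the choice of windows to print, were decided after values were seen.

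The pairing of GFP+ with GFP- arrays through their shared pool follows from the numbers of mice in the labels. Across genes, deviations from the group means of arrays with the same number correlated at 0.014 to 0.36 with odorant and 0.11 to 0.16 with vehicle. The alternatives were 3 other scalings, a filter on dim probesets, 1 model for all groups, the replicate block, for the interaction no moderation of the spread, and leaving out each array.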

Additional observations from a re-analysis of the deposited data

Results flagged for a closer look

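In the 28 receptors chosen for full statistics, 112 groups of 4 arrays were examined for an array far from the other 3, where chance alone would mark about 5.6 of them. There were 3. Olfr91 read 8.10 on vehicle GFP+ array 2, below the next lowest at 8.36 and the highest at 8.37. Olfr109 read 7.84 on odorant GFP+ array 1, below the next lowest at 8.58 and the highest at 8.64. Olfr761 read 5.43 on vehicle GFP- array 2, above the next highest at 4.72 and the lowest at 4.70, all of them at background.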

How the results depend on the processing

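Of the 40 calls of single receptors given with full statistics between GFP+ and GFP- cells, 36 were kept under every alternative and 0 reversed. The other 4 each lost significance under at least 1. With odorant these were Olfr93 (8 alternatives, adjusted p 0.0767 to 0.126), Olfr124 (6, 0.0567 to 0.0899) and Olfr136 (4, 0.0639 to 0.0775), and with vehicle Olfr109 (1, 0.051). Leaving out each array in turn gave 7 to 11 receptors higher and 12 to 15 lower with odorant, and 11 to 13 higher and 15 to 17 lower with vehicle, the lowest count being 7 without odorant GFP+ array 4. Of all 22206 genes, those fits called 600 to 698 higher and 1552 to 1712 lower with odorant. With vehicle they called 1177 to 1505 higher and 1871 to 2128 lower. The replicate block, which pairs the fractions of a pool, gave 12 higher and 15 lower receptors in each sort. Over all genes it called 883 higher and 1817 lower with odorant, and 1682 and 2237 with vehicle. It changed 5 calls with odorant (Olfr107, Olfr109, Olfr129, Olfr131 and Olfr761) and 0 with vehicle. Quantile normalization gave 12 and 13 with odorant and 13 and 14 with vehicle, and subtracting array medians 15 and 12, and 15 and 13. Subtracting the mature neuron markers gave 8 and 15 with odorant, so that 34.8% of called receptors were higher, against 45.8% as deposited. Over all genes, subtracting array medians called 7757 higher and 1520 lower with odorant, against 793 and 1742 as deposited, and 10363 and 1687 with vehicle, against 1723 and 2213. Quantile normalization called 1266 and 1662 with odorant and 2544 and 2034 with vehicle. Subtracting the markers called 481 and 2130 with odorant and 1093 and 2512 with vehicle. Between odorant and vehicle, and in the interaction, 0 receptors passed under every alternative run. Odorant and vehicle arrays of the same number share only that number. Their deviations correlated at -0.034 to 0.25 for GFP+ cells and -0.10 to 0.30 for GFP- cells, and the replicate block left the counts at 0. Receptors at background in a fraction have only a bound there.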

Other observations

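In GFP+ cells the array numbered 2 was the highest of its 4 with odorant and again with vehicle for 6 of the 49 receptors, against 3, 3 and 4 receptors for the numbers 1, 3 and 4, a count made after the values were seen. The 6 included 3 genes that lie side by side, Olfr115, Olfr116 and Olfr117. Olfr115 read 12.63 on the odorant array, against 11.19 to 11.59 on the other 3, and 13.50 on the vehicle array, against 10.54 to 12.24. Olfr116 read 9.75, against 7.54 to 7.99, and 10.62, against 5.65 to 7.26. Olfr117 read 11.29, against 9.47 to 9.87, and 11.75, against 9.95 to 11.27. In GFP- cells array 2 was the lowest of its 4 in both treatments for Olfr115, at 10.68 with odorant and 11.61 with vehicle. For Olfr116 it was the lowest with odorant (13.09, against 13.11 to 13.36) and the highest with vehicle (13.49, against 12.84 to 13.43), and for Olfr117 it was neither the highest nor the lowest in either treatment. Olfr63, Olfr96 and Olfr1564 were the other 3.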
